A study of Mus musculus with 38 samples.

Results

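Residual 60577 tumors, collected from the omentum 21 days after the last dose of carboplatin and paclitaxel, were compared with untreated 60577 tumors. The comparison took the 4 TP3 treated and the 3 TP2 control libraries of this model, which are 7 of the 38 libraries of the series. Their labels alone chose them, and no measured value did. 60577 is a single mouse line of high-grade serous ovarian cancer (HGSOC), and the mice were FVB females that received these cells by intraperitoneal injection when 8 to 9 weeks old. From day 21 after the injection, treated mice were given carboplatin at 20 mg/kg with paclitaxel at 10 mg/kg, intraperitoneally and weekly for 3 doses, and their tumors were resected on day 56. Control mice were given the vehicle only, and their tumors were resected on day 42, which was 7 days after the last dose. Untreated tumors of day 56 were not analyzed here, so the treatment and the later day cannot be told apart in any value given for this comparison. RNA was taken from frozen whole tumor tissue, in which cancer cells, fat, vessels and immune cells are sequenced together. In such bulk samples fewer cells of a type and less RNA per cell cannot be told apart.

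The omentum is a fold of peritoneal fat lined by mesothelium. Besides adipocytes it holds milky spots, which are clusters of B cells, T cells and macrophages around small vessels, fed by chemokines of stromal cells, and ovarian cancer often spreads to it. HGSOC cells carry keratins and other epithelial genes, and this cancer in patients carries mutations of the p53 gene almost always. Carboplatin forms adducts and crosslinks on DNA, which homologous recombination and the Fanconi pathway repair, whereas paclitaxel freezes microtubules and stops dividing cells in mitosis.

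The estimated read counts on genes summed to between 24196228 and 29011193 in the TP3 treated tumors (median 26970794) and to between 22314684 and 31177747 in the TP2 controls (median 30585103). Values per tumor are given as CPM, read counts scaled to a common library size of 1000000, listed in the order of the replicate numbers, which carry no rank. Changes are log2 fold changes of TP3 treated against TP2 control with their standard errors (±), and adjusted p-values come from the quasi-likelihood test of edgeR, adjusted over all genes tested by the Benjamini-Hochberg method. A gene was called higher or lower at an adjusted p-value below 0.05 and a fold above 2. Of the 16241 genes tested, 2307 (14.2%) were higher and 1659 (10.2%) lower in the TP3 treated tumors, together 24.4%, and the median over all genes was 0.00. The groups did not overlap in 9332 of the 16241 genes, with the TP3 treated tumors higher in 4678 of these, so a full separation was common. TP2 control replicate 2 had the lowest correlation with the other control tumors: its log2 CPM correlated at 0.954 with their mean, against 0.971 and 0.976 for replicates 1 and 3. It had the highest hypoxia and neutrophil genes and the lowest endothelial, B cell and adipocyte genes of the 3. Other measures did not single it out. Its median absolute deviation from the group mean was 0.156 in log2 CPM, against 0.126 and 0.153 for replicates 1 and 3. A chi-square of the counts was largest between replicates 1 and 2 (234 per degree of freedom) and smallest between replicates 2 and 3 (97.3). Leaving out 1 of the 7 tumors moved the fold change of 58 of the 150 named genes that were called by more than 1.5 times, and 1 of the 58, Inhba, changed sign. Where it moved a count or the log2 value of a call by more than 1.5 times, the value without that tumor is given beside the result.

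Adipocyte genes made up the widest gain of the TP3 treated tumors. Of 31 adipocyte genes tested, 29 were higher and none lower, with a median log2 fold change of 5.23 against 0.00 over all genes. In each of the 31 genes the 4 TP3 treated tumors lay above the 3 controls, against 4678 of all 16241 genes. Adipoq (ENSMUSG00000022878, chromosome 16 from 23146536 to 23158028), which encodes the adipocyte hormone adiponectin, was at 424, 430.1, 362 and 290.0 CPM in the TP3 treated tumors and 0.769, 0.0672 and 1.18 CPM in the TP2 controls. Every residual tumor was far above every control (9.18 ± 1.72, adjusted p = 0.000416). Lep, the gene of leptin, was at 112, 163, 87.1 and 62.8 CPM in the TP3 treated tumors and 0.14, 0 and 0.48 CPM in the TP2 controls (9.11 ± 1.62, adjusted p = 0.000272), and Nnat, which encodes neuronatin and had the largest change of the list, was at 226, 217, 210.0 and 118 CPM in the TP3 treated tumors and 0.21, 0.235 and 0.349 CPM in the TP2 controls (9.51 ± 1.64, adjusted p = 0.000214). Plin1 (ENSMUSG00000030546, chromosome 7 from 79720218 to 79732903), which encodes the coat protein of large lipid droplets, was at 586, 537, 451 and 402 CPM in the TP3 treated tumors and 2.69, 0.773 and 3.14 CPM in the TP2 controls (7.83 ± 1.37, adjusted p = 0.000233), and the groups did not overlap in any of these 4 genes. The lipid droplet genes Cidec (8.74) and Plin4 (7.14), the adipsin gene Cfd (8.67), the adrenergic receptor gene Adrb3 (8.72), the glucose transporter gene Slc2a4 (6.52) and the fatty acid carrier gene Fabp4 (5.45) moved the same way. All 15 control reads of Adrb3 were in control replicate 1.

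Of the 7 genes of fatty acid synthesis in the list 5 were higher. Scd1, the stearoyl-CoA desaturase, was at 7476, 8289.5, 4084 and 8138 CPM in the TP3 treated tumors and 93.8, 130.1 and 84.7 CPM in the TP2 controls (6.09 ± 0.85, adjusted p = 3.52e-05), with TP3 treated replicate 3 the lowest of the residual tumors. Fasn, the fatty acid synthase, was at 3656, 3061, 2103 and 3408 CPM in the TP3 treated tumors and 450.0, 408 and 471 CPM in the TP2 controls (2.79 ± 0.36, adjusted p = 2.06e-05), and Acaca, which makes the malonyl-CoA that it uses, was at 656, 590.0, 441 and 583 CPM in the TP3 treated tumors and 93.9, 105 and 101 CPM in the TP2 controls (2.51 ± 0.26, adjusted p = 2.06e-06). Unlike the adipokines, these 3 genes were well above 1 CPM in the cultured cancer line, at 508 and 339 CPM for Scd1, 1082 and 864 for Fasn and 187 and 158 for Acaca, and from which cells their RNA came in the tumors was not tested. The other 2 synthesis genes, Acly (0.92, adjusted p = 0.00537) and Srebf1 (0.75, adjusted p = 0.000339) stayed under a fold of 2, although the groups did not overlap. Without control replicate 2 Acly passed (1.16, adjusted p = 0.00257). Of the 5 brown or beige adipocyte genes tested, none was higher and 3 were lower, the largest change being that of Cox7a1, a respiratory chain subunit, at 3.18, 4.4 and 2.71 CPM in the TP2 controls and 0.93, 0.901, 0.763 and 1.39 CPM in the TP3 treated tumors (-1.78 ± 0.50, adjusted p = 0.00765). Ppargc1a (-1.18), a coactivator of mitochondrial genes, and Zic1 (-1.26) were the other 2, the former with no call without control replicate 3 (-0.90, adjusted p = 0.0181). Ucp1, the defining gene of brown fat, was not tested, since it had 78 reads in the controls, 74 of them in replicate 2, and 5 in the TP3 treated tumors. Cox8b, a respiratory chain subunit of brown fat and muscle, was not tested either and went the other way, with 51, 57, 39 and 66 reads in the TP3 treated tumors and 3, 0 and 2 in the controls, and under edgeR's filterByExpr it was called higher (4.83, adjusted p = 0.00194) and Ucp1 lower (-4.21, adjusted p = 0.00963).

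**Figure D1:**
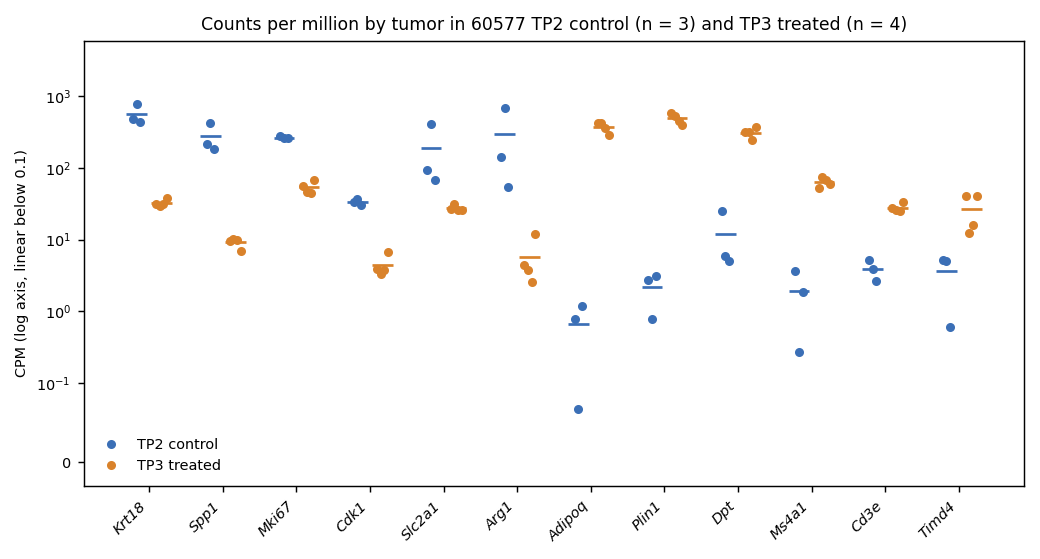
CPM of 12 genes in each TP2 control tumor (blue, n = 3) and each TP3 treated tumor (orange, n = 4) on a log axis that is linear below 0.1, with horizontal bars at the group means. The 6 genes on the left (epithelium, division, glucose uptake, arginase) are lower and the 6 on the right (fat, fibroblast, B cell, T cell, macrophage) higher in TP3 treated tumors, with the widest gaps in Adipoq and Plin1.

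Among treated tumors the adipocyte genes were higher at TP3 than at TP2. In treated tumors 7 days after the last dose (TP2 treated, n = 4), Adipoq was at 159, 26.8, 8.21 and 13.3 CPM, above the controls in every tumor and below every TP3 treated tumor. The change from TP2 treated to TP3 treated tumors was 2.38 as a median over the 31 genes, of which 23 were higher against a background of 3.47% of all genes (4.4% were lower), and 2.86 ± 1.07, adjusted p = 0.0492 for Adipoq. TP2 treated replicate 1 held more than the other 3 TP2 treated tumors in both genes named here. Scd1, at 1741, 244, 175 and 291 CPM in the TP2 treated tumors, was higher again at TP3 (3.51 ± 0.66, adjusted p = 0.00329).

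Stromal genes of the resting type rose with the fat. Of 14 genes of resting or adventitial fibroblasts, 12 were higher, with a median of 2.18. Dpt (ENSMUSG00000026574, chromosome 1 from 164796644 to 164824266), which encodes the matrix protein dermatopontin, was at 318, 323, 243 and 369 CPM in the TP3 treated tumors and 24.9, 5.85 and 5.02 CPM in the TP2 controls (4.71 ± 0.82, adjusted p = 0.000223), and Clec3b, the gene of tetranectin, was at 188, 119.7, 123 and 247 CPM in the TP3 treated tumors and 12.5, 5.51 and 4.98 CPM in the TP2 controls (4.46 ± 0.75, adjusted p = 0.000179). Lum (2.94), Fbln1 (2.49), Pi16 (2.36) and Dcn (2.00), genes of matrix proteins and of fibroblasts around vessels, were called as well, while Pdgfra (0.96, adjusted p = 3.11e-05) and Dpp4 (0.47, adjusted p = 0.228) were not, Pdgfra being called without control replicate 2 (1.06, adjusted p = 7.72e-05). From TP2 treated to TP3 treated tumors 6 of the 14 rose.

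Activated fibroblast genes were called in both directions. Of 18 tested, 4 were higher and 6 lower, with a median of -0.39, against 14.2% higher and 10.2% lower of all genes. Thbs2, the gene of the matricellular protein thrombospondin 2, was at 161, 204, 157 and 91.4 CPM in the TP3 treated tumors and 63.3, 21 and 53.6 CPM in the TP2 controls (1.74 ± 0.41, adjusted p = 0.00223), and Postn, Grem1 and Fap were also higher, at 1.48, 1.36 and 1.26. Inhba, which encodes a subunit of activin, was at 13.3, 145 and 5.98 CPM in the TP2 controls and 9.03, 9.55, 11.3 and 12.6 CPM in the TP3 treated tumors (-2.36 ± 0.73, adjusted p = 0.0139). Control replicate 2 alone stood high, the other controls lay on both sides of the residual tumors, and without it the change was 0.14, adjusted p = 0.814. Lox, which crosslinks collagen, was at 255, 408 and 194 CPM in the TP2 controls and 95.6, 166, 107 and 66.2 CPM in the TP3 treated tumors (-1.39 ± 0.34, adjusted p = 0.00316), and Loxl2, of the same family, was at 361, 553 and 285 CPM in the TP2 controls and 114, 200.0, 101 and 92.9 CPM in the TP3 treated tumors (-1.66 ± 0.29, adjusted p = 0.000263). Each residual tumor lay below each control in both. Fn1, the fibronectin gene, was lower (-1.13, adjusted p = 0.00315), but not called without control replicate 2 (-0.76, adjusted p = 0.0309), and the fibrillar collagens Col1a1 (-0.59, adjusted p = 0.0769), Col1a2 (-0.32, adjusted p = 0.301) and Col3a1 (0.47, adjusted p = 0.117) were not called. Without control replicate 2 the counts were 2 higher and 3 lower, not far from the shares of all genes. Postn (1.14, adjusted p = 0.0917) and Fap (0.88, adjusted p = 0.0207) were the higher calls lost. Postn was also lost without control replicate 3 (1.32, adjusted p = 0.0794) and without TP3 treated replicate 2. Lox and Loxl2 were also expressed by the cultured line, at 330.5 and 144 CPM and 347 and 227 CPM.

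Of 13 basement membrane genes, 4 were higher and 3 lower. Lama2, a laminin chain of muscle and stroma, was at 95.3, 69.6, 55.2 and 112 CPM in the TP3 treated tumors and 14.7, 4.44 and 6.64 CPM in the TP2 controls (3.27 ± 0.57, adjusted p = 0.000246), whereas Lama5, a laminin chain under epithelia, was at 684, 645 and 941 CPM in the TP2 controls and 202, 194, 224 and 212 CPM in the TP3 treated tumors (-1.86 ± 0.18, adjusted p = 1.59e-06). Both separated the groups in full. In the cultured line Lama2 was at 0.424 and 0.707 CPM and Lama5 at 935 and 977 CPM. Nid1 (1.75), Nid2 (1.81) and Lama4 (1.07) went with Lama2, Npnt (-1.26) and Col4a5 (-1.21) with Lama5. Lama4 was not called without control replicate 2 (0.91, adjusted p = 0.000906) nor Npnt without control replicate 3 (-0.73, adjusted p = 0.0499), and the collagen IV genes Col4a1 (0.23, adjusted p = 0.56) and Col4a2 (0.05, adjusted p = 0.89) were not called.

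Among matrix proteases and their inhibitors, 2 of 18 were higher, a share below the 14.2% of all genes, and 6 were lower, against 10.2% of all genes. Mmp13, a collagenase, was at 10.5, 34.9 and 7.2 CPM in the TP2 controls and 0.697, 0.577, 0.52 and 1.1 CPM in the TP3 treated tumors (-4.59 ± 0.64, adjusted p = 3.62e-05), and Timp1, an inhibitor of such enzymes, was at 95, 263 and 42.8 CPM in the TP2 controls and 12.4, 16.4, 14.1 and 12 CPM in the TP3 treated tumors (-3.28 ± 0.53, adjusted p = 0.000126). Both were lower in every residual tumor than in any control, also without control replicate 2, in which they were highest. Adamts5, an aggrecanase, was at 245, 337, 197 and 177 CPM in the TP3 treated tumors and 28.6, 20.7 and 16.9 CPM in the TP2 controls (3.44 ± 0.41, adjusted p = 9.73e-06), again with no overlap. Mmp9, a gelatinase that neutrophils and macrophages release, was at 93.8, 88.6, 91.9 and 64.1 CPM in the TP3 treated tumors and 13.8, 47 and 10.3 CPM in the TP2 controls (1.83 ± 0.70, adjusted p = 0.0399), and it lost its call when any single one of control replicates 1 and 3 or the TP3 treated tumors 1, 2 and 3 was left out, and without control replicate 2 its change was 2.81, adjusted p = 0.00962. Timp4, an inhibitor found in fat, did not pass the filter on low counts, with 114, 128, 119 and 32 reads in the TP3 treated tumors and 1, 0 and 3 in the controls.

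Vessel genes rose in part. Of 18 blood endothelial genes, 8 were higher and 1 lower (median 1.56), and 13 were higher when control replicate 1 was left out. Cldn5, a tight junction gene of endothelium, was at 21.1, 22.8, 19.6 and 18 CPM in the TP3 treated tumors and 3.5, 0 and 2.79 CPM in the TP2 controls (3.29 ± 0.88, adjusted p = 0.00558), and Pecam1, a pan-endothelial adhesion gene, at 183, 209.5, 138 and 143 CPM in the TP3 treated tumors and 79.9, 10.8 and 40.4 CPM in the TP2 controls (1.95 ± 0.55, adjusted p = 0.0078). In both, control replicate 2 was lowest and every residual tumor lay above every control. Cdh5 (1.47, adjusted p = 0.147) and Kdr (-0.24, adjusted p = 0.646) were not called, though Cdh5 was without control replicate 1 (2.51, adjusted p = 0.0421). Flt1, a receptor of VEGF, fell, at 225, 232 and 175 CPM in the TP2 controls and 61.7, 78.1, 55 and 58.9 CPM in the TP3 treated tumors (-1.73 ± 0.16, adjusted p = 8.71e-07), and it was above 1 CPM in the cultured line (29.9 and 35.8 CPM). Of 12 mural genes, those of smooth muscle and pericytes, 7 were higher (median 1.27), though 3 without control replicate 2. Myh11, the smooth muscle myosin, was at 196, 200.2, 192 and 154 CPM in the TP3 treated tumors and 17.7, 1.11 and 9.12 CPM in the TP2 controls (4.32 ± 0.73, adjusted p = 0.000187). Acta2 (0.82, adjusted p = 0.0667) and Rgs5 (0.99, adjusted p = 0.355) were not called, though Acta2 was without control replicate 1 (1.11, adjusted p = 0.0332). Of 7 lymphatic genes, Reln (2.92, adjusted p = 0.0206) and Lyve1 (2.72, adjusted p = 0.00345) were higher, Pdpn (-1.38, adjusted p = 8.48e-05) and Flt4 (-1.94, adjusted p = 3.05e-07) lower, and the cultured line expressed the last 2, Flt4 at 339.7 and 419.5 CPM and Pdpn at 297 and 357 CPM. Reln lost its call without control replicate 2 (2.34, adjusted p = 0.0539) or 3 (2.71, adjusted p = 0.068), and its change was 4.50, adjusted p = 0.00662 without control replicate 1. Of 4 Schwann cell genes tested, Cnp (1.46, adjusted p = 9.26e-05) and Ngfr (1.41, adjusted p = 0.00555) were higher.

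B cell genes were low in untreated tumors and higher in all residual ones. Of 15 tested, 14 were higher, with a median of 4.35. Ms4a1 (ENSMUSG00000024673, chromosome 19 from 11249675 to 11266241), which encodes the B cell surface protein CD20, was at 52.8, 74.5, 67.6 and 60.5 CPM in the TP3 treated tumors and 3.6, 0.269 and 1.88 CPM in the TP2 controls (5.06 ± 0.84, adjusted p = 0.00016), and Cr2, the complement receptor of mature B cells and follicular dendritic cells, was at 52.4, 55.9, 59.3 and 36.1 CPM in the TP3 treated tumors and 1.57, 0.437 and 1.35 CPM in the TP2 controls (5.51 ± 0.80, adjusted p = 5.01e-05). Pax5, the regulator of B cell identity, was at 61.5, 79.1, 72.7 and 62.2 CPM in the TP3 treated tumors and 3.71, 0.806 and 2.58 CPM in the TP2 controls (4.87 ± 0.73, adjusted p = 6.88e-05). The residual tumors lay above the controls in all of the 14, against 4678 of all 16241 genes, and they differed from each other by less than 2 times in these 3 genes. Cd72 (0.04, adjusted p = 0.951), also a B cell gene, was the member not called. Of 7 genes tested for B-1 cells, the innate B cells of body cavities, 5 were higher, led by Cd5 at 20.1, 17.7, 17.9 and 21.2 CPM in the TP3 treated tumors and 4.09, 0.571 and 1.48 CPM in the TP2 controls (3.22 ± 0.54, adjusted p = 0.000179), which T cells express too. Il5ra, the interleukin 5 receptor of B-1 cells and eosinophils, was not tested, with 25, 61, 27 and 68 reads in the TP3 treated tumors and 0, 0 and 1 in the controls.

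Antibody genes rose too. Of 11 immunoglobulin constant genes 8 were higher (median 4.20). Ighm, of the IgM heavy chain, was at 2466, 1842, 2427 and 2905 CPM in the TP3 treated tumors and 108, 3.93 and 171 CPM in the TP2 controls (4.68 ± 1.29, adjusted p = 0.00708), and Igkc, of the kappa light chain, at 1395, 1303, 2046 and 1272 CPM in the TP3 treated tumors and 59.1, 3.29 and 221 CPM in the TP2 controls (3.99 ± 1.31, adjusted p = 0.0193). The residual tumors differed from each other by less than 2 times in both, while control replicate 2 was far below the other controls. Ighg3, of IgG3, varied among the residual tumors, at 33.2, 746, 669 and 132 CPM in the TP3 treated tumors and 0.804, 2.25 and 0.437 CPM in the TP2 controls (8.36 ± 1.56, adjusted p = 0.000403). Ighg1, at 423, 213, 1524 and 129.7 CPM in the TP3 treated tumors and 24.6, 0.302 and 269 CPM in the TP2 controls, and Igha, at 71.1, 202, 189 and 90.1 CPM in the TP3 treated tumors and 38.3, 0.47 and 106 CPM in the TP2 controls, overlapped between the groups and were not called (adjusted p = 0.212 and 0.303). Without control replicate 1 Igkc (3.75, adjusted p = 0.0656) and the joining chain gene Jchain (3.67, adjusted p = 0.0697) lost their calls, and without control replicate 3 Ighg1 gained one (5.52, adjusted p = 0.0466). Of 11 plasma cell genes 5 were higher, among them Pou2af1 (4.42, adjusted p = 0.000181), Mzb1 (4.19, adjusted p = 0.000881) and Jchain (3.85, adjusted p = 0.0218). Sdc1, a plasma cell marker that epithelial cells also make and that stood at 133 and 99.5 CPM in the cultured line, was lower (-1.53, adjusted p = 0.000163). From TP2 treated to TP3 treated tumors the median change was 0.57 over the B cell genes and 2.75 over the constant genes, of which 7 of 11 rose. Ighm was at 589.7, 186, 159.5 and 235 CPM in the TP2 treated tumors.

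Of 13 genes of lymphoid aggregates, most of them signals that gather lymphocytes, 8 were higher (median 3.11). Cxcl13, the chemokine that draws B cells into follicles and milky spots, was at 121, 81.2, 79.2 and 104 CPM in the TP3 treated tumors and 19.8, 4.77 and 8.82 CPM in the TP2 controls (3.11 ± 0.75, adjusted p = 0.00271), and its receptor gene Cxcr5 at 26.3, 32, 26.9 and 23.3 CPM in the TP3 treated tumors and 1.68, 0.269 and 0.742 CPM in the TP2 controls (4.91 ± 0.69, adjusted p = 3.78e-05). The lymphotoxin genes Ltb (3.24) and Lta (3.22), the survival factor gene Tnfsf13b (1.47) and its receptor gene Tnfrsf13c (3.56) were higher in every residual tumor than in any control. Ccl19, a chemokine for T cells and dendritic cells, was at 3.8, 2.27, 2.91 and 4.46 CPM in the TP3 treated tumors and 0.035, 0 and 0 CPM in the TP2 controls. It had 1 control read in all, and the ratio of reads per library size was 274 (exact 95% counting interval 49 to 10900). Il7, which lymphocytes need to survive, was at 2.44, 2.42, 2.57 and 4.94 CPM in the TP3 treated tumors and 0.245, 0.0336 and 0 CPM in the TP2 controls (4.93 ± 0.78, adjusted p = 0.000106). Ccl21a, a chemokine that shares its receptor with Ccl19, was at 12.1, 11.8, 0.381 and 18.9 CPM in the TP3 treated tumors and 6.23, 0.101 and 1.62 CPM in the TP2 controls and was not called (adjusted p = 0.218), and Madcam1 (-0.12, adjusted p = 0.834), an address molecule of lymphoid venules, was not either. Of 4 germinal center genes tested, Gcsam was higher (3.34, adjusted p = 0.00258), and Bcl6 was not called (0.41, adjusted p = 0.104).

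T cell genes rose nearly all. Of 19 tested, 18 were higher (median 3.03), and all 19 separated the groups, against 9332 of all 16241 genes. Cd28, the costimulatory receptor, had the largest change, at 15.1, 16.5, 16.7 and 18.7 CPM in the TP3 treated tumors and 1.61, 0.84 and 0.742 CPM in the TP2 controls (3.96 ± 0.42, adjusted p = 2.91e-06), and Cd3e, a chain of the T cell receptor complex, was at 27.3, 26.3, 25.2 and 33.3 CPM in the TP3 treated tumors and 5.21, 3.83 and 2.66 CPM in the TP2 controls (2.84 ± 0.42, adjusted p = 6.08e-05). Cd4 was at 49.9, 64.4, 54.6 and 52.5 CPM in the TP3 treated tumors and 9.2, 0.538 and 5.37 CPM in the TP2 controls (3.46 ± 0.65, adjusted p = 0.000452). Cd8a, the marker of the other T cell branch, was at 2.87, 3.28, 4.51 and 6.43 CPM in the TP3 treated tumors and 2.31, 0.101 and 0.393 CPM in the TP2 controls (2.18 ± 0.80, adjusted p = 0.0333), and it lost its call without control replicate 2 (1.63, adjusted p = 0.1) or 3 (1.83, adjusted p = 0.112) or without TP3 treated replicate 3 or 4, and was larger without control replicate 1 (4.16, adjusted p = 0.00171). The residual tumors were within 2 times of each other in Cd28, Cd3e and Cd4, and TP3 treated replicate 4 was highest in Cd8a. Of 10 cytotoxic and natural killer genes 9 were higher (median 2.95), led by the pore protein gene Prf1, at 2.4, 2.56, 2.25 and 2.16 CPM in the TP3 treated tumors and 0.595, 0 and 0.0437 CPM in the TP2 controls (3.40 ± 0.72, adjusted p = 0.00106), and without control replicate 1 its change was 6.62, adjusted p = 1.71e-05. The chemokine gene Xcl1 was not called (1.59, adjusted p = 0.0516). Of 12 regulatory and checkpoint genes 6 were higher and 1 lower. Foxp3, the regulator of regulatory T cells, was at 21.5, 18.7, 13.2 and 17.2 CPM in the TP3 treated tumors and 3.15, 0.638 and 2.53 CPM in the TP2 controls (3.07 ± 0.54, adjusted p = 0.000244), and Ctla4 (2.66), Icos (2.80) and Tigit (2.31) were higher too. Pdcd1, the gene of PD-1, was lower, at 22.9, 10.9 and 25.5 CPM in the TP2 controls and 9.38, 9.12, 8.7 and 10.2 CPM in the TP3 treated tumors (-1.08 ± 0.22, adjusted p = 0.00089), a call lost without control replicate 1 (-0.95, adjusted p = 0.00551) or 3 (-0.85, adjusted p = 0.0074). Cd274, the gene of a ligand of PD-1, was not called (0.38, adjusted p = 0.301). From TP2 treated to TP3 treated tumors the medians were 0.12 over the T cell genes and 0.15 over the cytotoxic genes.

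Antigen presentation and macrophage genes rose in part. Of 10 dendritic cell genes 6 were higher (median 1.98), led by Clec9a, a receptor for dead cells on cross-presenting dendritic cells, at 5.97, 4.29, 6.48 and 5.36 CPM in the TP3 treated tumors and 1.12, 0.302 and 0.262 CPM in the TP2 controls (3.27 ± 0.49, adjusted p = 6.8e-05). Of 10 genes of MHC class II presentation 5 were higher (median 1.13), led by H2-Oa (3.13, adjusted p = 0.000446), which B cells express. Cd74 (0.88, adjusted p = 0.118) and H2-Ab1 (0.98, adjusted p = 0.107) were not called. That count was 9 without control replicate 1, and 3 without control replicate 2 or TP3 treated replicate 4. Of 13 resident macrophage genes 7 were higher (median 1.39). Timd4, a receptor for dying cells on resident macrophages of body cavities, was at 40.3, 12.2, 15.8 and 40.3 CPM in the TP3 treated tumors and 5.14, 5.04 and 0.611 CPM in the TP2 controls (2.90 ± 0.80, adjusted p = 0.00698), and Mrc1, the mannose receptor, at 326, 326, 313 and 328 CPM in the TP3 treated tumors and 149.8, 38.8 and 131 CPM in the TP2 controls (1.60 ± 0.34, adjusted p = 0.00118). C1qa, of the complement trigger C1q, was not called (0.82, adjusted p = 0.0893). The count was 12 without control replicate 1 and 4 without control replicate 2 or 3 or TP3 treated replicate 1. Of 12 complement genes 5 were higher, led by C7 at 38.4, 39.8, 28.9 and 23.8 CPM in the TP3 treated tumors and 0.56, 0.0672 and 0.611 CPM in the TP2 controls (6.33 ± 0.68, adjusted p = 3.57e-06), and C3 was not called (0.53, adjusted p = 0.119).

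**Figure D2:**
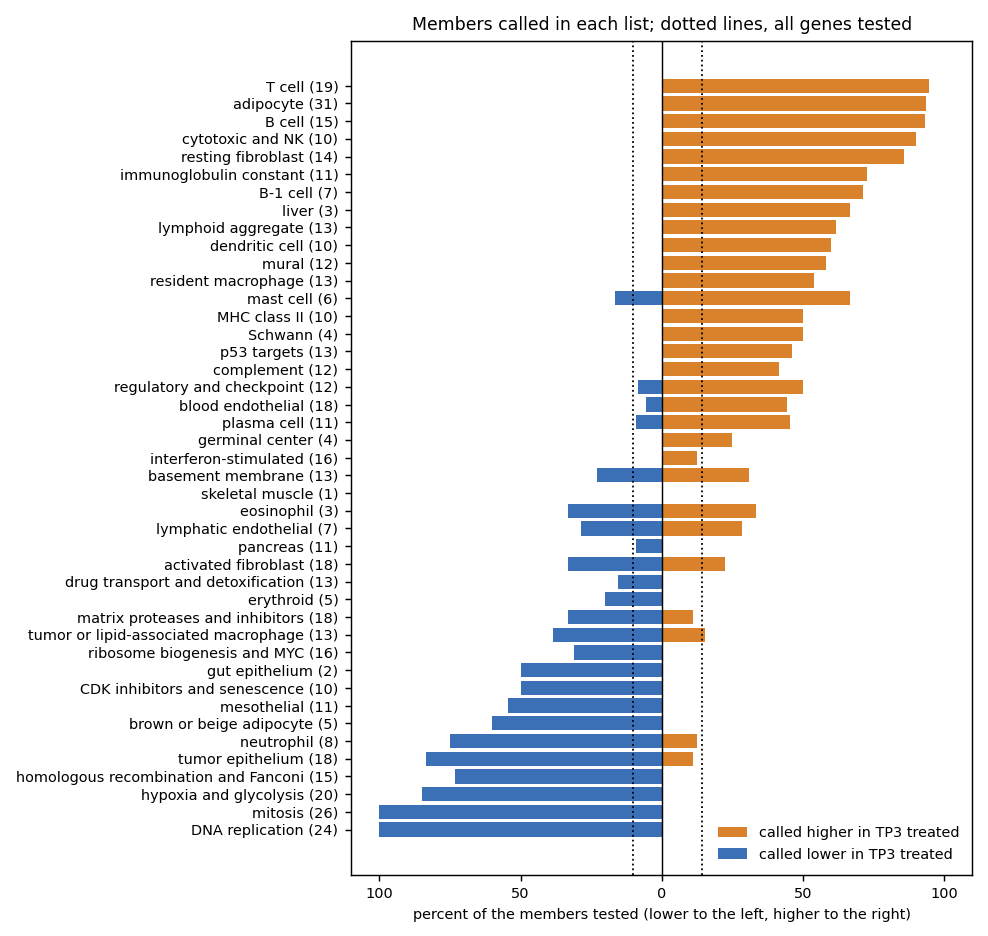
Percent of the tested members of each gene list that were called higher (orange, to the right) or lower (blue, to the left) in the 4 TP3 treated against the 3 TP2 control tumors, with the number tested in brackets. Dotted lines mark the shares over all 16241 genes (14.2% higher, 10.2% lower), and the longest bars are those of T cell, adipocyte and B cell genes on one side and of DNA replication and mitosis genes on the other.

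Other myeloid lists held genes called in both directions. Of 13 genes of tumor-associated or lipid-associated macrophages 5 were lower, against 10.2% of all genes. The 2 that were higher were near the 14.2% of all genes. The median was -0.86, but -0.26 without control replicate 2 and -0.13 against the TP1 controls. Arg1, the arginase of immunosuppressive macrophages, was at 144, 696 and 54.6 CPM in the TP2 controls and 4.38, 3.75, 2.57 and 11.9 CPM in the TP3 treated tumors (-5.71 ± 0.77, adjusted p = 2.49e-05), and Nos2, the inducible nitric oxide synthase, at 6.33, 77.7 and 4.23 CPM in the TP2 controls and 4.22, 3.03, 2.29 and 2.58 CPM in the TP3 treated tumors (-3.28 ± 0.74, adjusted p = 0.00181). All residual tumors lay below all controls in both, in Nos2 by a narrow margin, and control replicate 2 held the highest levels. Without it Arg1 was still lower (-4.13, adjusted p = 3.98e-05) and Nos2 was not called (-0.81, adjusted p = 0.101). Spp1, the osteopontin gene, which macrophages and epithelial cancers share, was at 214, 427 and 187 CPM in the TP2 controls and 9.69, 10.3, 9.81 and 6.88 CPM in the TP3 treated tumors (-4.91 ± 0.57, adjusted p = 7.77e-06). Gpnmb, a lysosomal glycoprotein of lipid-laden macrophages, was at 56.8, 132, 96.8 and 74.5 CPM in the TP3 treated tumors and 2.03, 5.75 and 8.82 CPM in the TP2 controls (4.03 ± 0.68, adjusted p = 0.000176), while Trem2 (-0.20, adjusted p = 0.322) was not called. Without control replicate 2 or 3 the list had 1 higher member in place of 2. Of 8 neutrophil genes tested 6 were lower and 1, Mmp9, higher, against 10.2% lower and 14.2% higher of all genes. S100a9, an abundant neutrophil protein, was at 3.01, 8.53 and 1.79 CPM in the TP2 controls and 0.271, 0.216, 0.347 and 0.678 CPM in the TP3 treated tumors (-3.53 ± 0.62, adjusted p = 0.000262), and Cxcl2, a chemokine for neutrophils and the largest fall of the list, at 1.68, 31.8 and 0.349 CPM in the TP2 controls and 0.891, 0.433, 0.381 and 1.23 CPM in the TP3 treated tumors (-3.94 ± 1.08, adjusted p = 0.0067). In Cxcl2 control replicate 3 lay below the residual tumors, and without control replicate 2 its change was -0.50, adjusted p = 0.658 and 3 neutrophil genes were lower. Of 6 mast cell genes tested 4 were higher, all of them protease genes, led by Mcpt4 at 3.25, 3.64, 3.67 and 8.4 CPM in the TP3 treated tumors and 0.42, 0.0672 and 0.175 CPM in the TP2 controls (4.39 ± 0.73, adjusted p = 0.000161), and Hdc, which makes histamine, was lower (-1.32, adjusted p = 0.0038). Ms4a2 of this list was not tested, with 23, 24 and 16 reads in the controls and 7, 9, 5 and 9 in the TP3 treated tumors. Under filterByExpr it was called lower (-1.51, adjusted p = 0.00718). The summed CPM of the mast cell genes tested was 37.4 to 52.9 in the TP3 treated tumors, below the 55.4 to 73.6 of the controls. Of 3 eosinophil genes Ccr3 was higher (2.53, adjusted p = 0.00111) and Siglecf lower (-1.70, adjusted p = 0.0214), the latter with no call once control replicate 2 or one of TP3 treated replicates 1, 2 and 3 was left out. Of 16 interferon-stimulated genes 2 were higher, a share below the 14.2% of all genes. They were Cxcl9, at 34.7, 11.9, 9.39 and 31.3 CPM in the TP3 treated tumors and 8.39, 0.0672 and 2.27 CPM in the TP2 controls (2.60 ± 0.96, adjusted p = 0.034), and Ifit3 (2.28, adjusted p = 0.0253). Neither was called without control replicate 2 or 3 or without TP3 treated replicate 1 or 4, and 6 were called without control replicate 1 (Cxcl9 at 4.28, adjusted p = 0.00675).

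Epithelial genes were mostly lower. Of the 18 tested, 14 were at 1 CPM or more in both cultures of the cancer line. From which cells their RNA came in the tumors was not tested. Krt8, a keratin of simple epithelia, was at 509, 766 and 423 CPM in the TP2 controls and 41.6, 44.3, 52.3 and 53.3 CPM in the TP3 treated tumors (-3.56 ± 0.31, adjusted p = 5.04e-07), and its partner Krt18 (ENSMUSG00000023043, chromosome 15 from 102028180 to 102032027) was at 482, 789 and 441 CPM in the TP2 controls and 31.2, 29.9, 31.3 and 37.8 CPM in the TP3 treated tumors (-4.13 ± 0.30, adjusted p = 9.5e-08). Every residual tumor kept some keratin RNA, far below the lowest control. Of 18 epithelial genes tested 15 were lower and 2 higher (median -2.17). Cdh1, the epithelial cadherin, was at 61.4, 68.4 and 113 CPM in the TP2 controls and 7.87, 9.41, 7.9 and 8.14 CPM in the TP3 treated tumors (-3.28 ± 0.25, adjusted p = 1.24e-07), and Epcam, an epithelial adhesion gene, at 33.9, 42.9 and 59.8 CPM in the TP2 controls and 10.8, 7.93, 8.01 and 8.85 CPM in the TP3 treated tumors (-2.35 ± 0.36, adjusted p = 7.4e-05). The residual tumors were nearly level with each other in these genes. Sox17 (2.76, adjusted p = 0.00328), which endothelium also expresses, and St14 (1.60, adjusted p = 0.00586) were the 2 higher members, and in the cultured line they stood at 0 and 0 CPM and 0 and 0.33 CPM, and St14 was at 2.43, adjusted p = 0.00024 without control replicate 1. Pax8, a marker of tubal and ovarian carcinoma, did not pass the filter on low counts, with 15, 12 and 13 reads in the controls and 7, 1, 2 and 4 in the TP3 treated tumors. Under filterByExpr it was called lower (-1.94, adjusted p = 0.0314).

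Wt1, the gene of a transcription factor of serous carcinoma and of mesothelium, fell less than the keratins, at 394, 422 and 436 CPM in the TP2 controls and 212, 200.0, 205 and 181 CPM in the TP3 treated tumors (-1.06 ± 0.14, adjusted p = 2.01e-05). It belongs to 11 mesothelial genes, of which 6 were lower and none higher (median -1.06). Cpe, the carboxypeptidase E gene, was at 799, 852 and 1015 CPM in the TP2 controls and 191, 173, 191 and 187 CPM in the TP3 treated tumors (-2.26 ± 0.24, adjusted p = 3.67e-06), and Upk3b, a uroplakin of mesothelium, at 1255, 1184 and 1546 CPM in the TP2 controls and 345, 277, 447 and 558 CPM in the TP3 treated tumors (-1.71 ± 0.25, adjusted p = 5.65e-05). All 11 were above 1 CPM in both cultures of the line, Upk3b at 1909.7 and 2136 CPM, so cancer cells and mesothelium cannot be told apart by this list. The members that were not called included Lrrn4 (-0.75, adjusted p = 0.0709) and Rspo1 (0.86, adjusted p = 0.0117).

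All 24 DNA replication genes were lower (median -2.20), and all 26 mitosis genes were (median -2.89), with no overlap between the groups in any of the 50. Over all 16241 genes the groups did not overlap in 9332. Mki67, the proliferation marker Ki-67, was at 278, 259 and 259 CPM in the TP2 controls and 56.9, 46.2, 44.7 and 68.1 CPM in the TP3 treated tumors (-2.30 ± 0.15, adjusted p = 4.33e-08). Mcm6, a subunit of the replicative helicase, had the largest change among the replication genes, at 182, 202 and 218 CPM in the TP2 controls and 24.9, 20.7, 23.5 and 32.7 CPM in the TP3 treated tumors (-2.98 ± 0.19, adjusted p = 2.89e-08), and Rrm1 the smallest (-1.27). Pcna, the sliding clamp, was at 195, 227 and 188 CPM in the TP2 controls and 58.4, 64, 62.8 and 68.4 CPM in the TP3 treated tumors (-1.68 ± 0.23, adjusted p = 3.4e-05). Cenpf, a kinetochore protein gene, led the mitosis genes, at 152, 171 and 171 CPM in the TP2 controls and 11.1, 11.8, 11.1 and 17.7 CPM in the TP3 treated tumors (-3.67 ± 0.23, adjusted p = 2.89e-08), and Cdk1 (ENSMUSG00000019942, chromosome 10 from 69335146 to 69352938), the kinase that starts mitosis, was at 33.3, 36.7 and 30.8 CPM in the TP2 controls and 3.91, 3.35, 3.81 and 6.75 CPM in the TP3 treated tumors (-2.91 ± 0.25, adjusted p = 4.01e-07). Control tumors lay close together in these genes, replicate 2 included. Residual tumors were low throughout, and in Cdk1 replicate 4 was the highest of the 4. Both counts were the same with each of the 7 tumors left out in turn. In the cultured line Cdk1 was at 121 and 104 CPM. Between TP2 treated and TP3 treated tumors 2 of the 24 and 1 of the 26 fell, against 4.4% of all genes, with medians of -0.26 and -0.69.

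Because the mitosis genes moved together, their promoters were read, and stretches are shown for 5 members that held both of the letter groups searched within the last 130 bases before the start. The table of RefSeq promoters (GRCm38.p6, 250 bases before to 50 after each start) held 21 of the 26 mitosis genes, 19 of the 24 replication genes and 11257 of all genes tested. Searched were the letters of the cell cycle gene homology region (TTTGAA, its reverse complement TTCAAA, and TTCGAA, which reads alike on both strands) and of the CCAAT box (CCAAT or its reverse complement ATTGG). A gene counted if any of its promoters held the letters. Genes had up to 26 promoters each, and the shares were not adjusted for that number. The first group was present in 76.2% of the mitosis genes, 26.3% of the replication genes and 16.8% of all genes with a promoter. The CCAAT letters were in 81% of the mitosis genes, 68.4% of the replication genes and 42.5% of all. Both groups were in the same promoter in 71.4%, 21.1% and 6.95%. The last 130 bases before the start are printed 5′ to 3′ on the strand of the gene, with the letters searched in capitals, for Kif11 (+ strand, chr19:37376252-37376381), Prc1 (+, chr7:80294346-80294475), Cdk1 (-, chr10:69352913-69353042), Cdc20 (-, chr4:118437344-118437473) and Top2a (-, chr11:99024190-99024319), the genes whose log2 fold changes were -3.45, -3.32, -2.91, -2.90 and -2.89.
Kif11: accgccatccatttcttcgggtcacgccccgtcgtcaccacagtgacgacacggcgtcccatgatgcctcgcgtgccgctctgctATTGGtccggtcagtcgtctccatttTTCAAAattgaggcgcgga
Prc1: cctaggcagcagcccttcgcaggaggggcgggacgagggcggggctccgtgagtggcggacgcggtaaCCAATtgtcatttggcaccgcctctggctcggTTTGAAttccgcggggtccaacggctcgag
Cdk1: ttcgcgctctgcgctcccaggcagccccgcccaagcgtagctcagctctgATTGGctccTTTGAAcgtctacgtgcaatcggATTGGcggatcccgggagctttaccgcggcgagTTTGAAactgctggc
Cdc20: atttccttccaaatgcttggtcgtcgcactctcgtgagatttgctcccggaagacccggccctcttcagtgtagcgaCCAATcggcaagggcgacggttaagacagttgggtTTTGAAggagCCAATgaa
Top2a: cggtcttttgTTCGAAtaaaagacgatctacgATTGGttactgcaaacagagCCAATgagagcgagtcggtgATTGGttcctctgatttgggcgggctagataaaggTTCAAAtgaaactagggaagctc
The letters are a match of sequence and say nothing of what binds there. Kif11 encodes a spindle motor, Prc1 a bundler of spindle microtubules, Cdc20 an activator of the anaphase-promoting complex and Top2a the topoisomerase that untangles chromosomes.

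Repair genes that serve dividing cells fell too. Of 15 homologous recombination and Fanconi genes 11 were lower and none higher (median -1.71). Exo1, an exonuclease that resects DNA ends, was at 17.5, 15.4 and 19.1 CPM in the TP2 controls and 2.13, 1.41, 2.01 and 2.16 CPM in the TP3 treated tumors (-3.16 ± 0.16, adjusted p = 5.66e-09). Brca1 (-1.32) and Brca2 (-1.71) were lower, and Fancm (-0.12, adjusted p = 0.538) and Palb2 (-0.84, adjusted p = 0.000161) were not called. The groups overlapped in Fancm only. Of 16 genes of ribosome biogenesis and MYC 5 were lower, against 10.2% of all genes. Mycn (-1.35, adjusted p = 0.000178) led them, with Myc itself at -1.03, adjusted p = 0.00191. The count was 3 without TP3 treated replicate 1, and without control replicate 2 it was 2, near the share of all genes. Of 10 genes of cell cycle inhibitors and senescence none was higher and 5 were lower. Cdkn2a, an inhibitor that the cultured line expressed at 237 and 209 CPM, was at 122, 136 and 135 CPM in the TP2 controls and 32, 36.7, 48.9 and 44.1 CPM in the TP3 treated tumors (-1.69 ± 0.18, adjusted p = 2.64e-06).

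Of 13 genes that p53 induces 6 were higher, with Eda2r, an ectodysplasin receptor, far ahead at 31, 22.9, 29.4 and 35.8 CPM in the TP3 treated tumors and 1.75, 1.24 and 0.96 CPM in the TP2 controls (4.48 ± 0.44, adjusted p = 1.52e-06). Trp53 itself was at 43.5, 47.8, 41.6 and 47 CPM in the TP3 treated tumors and 19.6, 11.7 and 16.1 CPM in the TP2 controls (1.51 ± 0.19, adjusted p = 1.53e-05) and at 3.28 and 2.9 CPM in the cultured line. Residual tumors lay above all controls in both genes. Phlda3 (1.37), Zmat3 (1.07), Trp53inp1 (1.06) and Ccng1 (1.01) were also higher. Cdkn1a, which encodes the inhibitor p21, was at 81.1, 74.8, 68.8 and 62.5 CPM in the TP3 treated tumors and 24.6, 157 and 12.4 CPM in the TP2 controls (0.15 ± 0.56, adjusted p = 0.842): it lay above control replicates 1 and 3 and below replicate 2, and it was called higher when replicate 2 was left out (1.95, adjusted p = 0.000138). Mdm2, a p53 target that limits p53, was not called (0.08, adjusted p = 0.72). Ccng1 (0.99, adjusted p = 0.00905) and Trp53inp1 (0.88, adjusted p = 0.0104) fell just short of the fold without control replicate 2. The list as a whole did not shrink in that fit: 7 were higher, and the median was 1.03 against 0.74 with all tumors.

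Of 20 genes of hypoxia and glycolysis 17 were lower and none higher (median -2.03). Car9, a carbonic anhydrase that hypoxia induces, was at 34.2, 94.1 and 49.1 CPM in the TP2 controls and 2.44, 1.51, 3.88 and 2.29 CPM in the TP3 treated tumors (-4.54 ± 0.39, adjusted p = 4.25e-07), and Vegfa, the growth factor of vessels, at 392, 1229 and 355 CPM in the TP2 controls and 108, 88, 78.8 and 61.1 CPM in the TP3 treated tumors (-2.97 ± 0.40, adjusted p = 2.43e-05). Slc2a1, the glucose transporter of hypoxic and dividing cells, was at 94, 412 and 67.3 CPM in the TP2 controls and 27, 31.6, 26.1 and 25.9 CPM in the TP3 treated tumors (-2.79 ± 0.46, adjusted p = 0.000141), and Pgk1, a glycolytic enzyme, at 436, 1292 and 374 CPM in the TP2 controls and 76.4, 83.3, 77.2 and 84.4 CPM in the TP3 treated tumors (-3.12 ± 0.36, adjusted p = 7.42e-06). In all 4 genes control replicate 2 was the highest tumor and the other controls were above every residual tumor, and without that tumor the change of Slc2a1 was -1.54, adjusted p = 0.000134. Without control replicate 2, 13 were lower (median -1.45). Bnip3 (-0.24, adjusted p = 0.707), Adm (-1.36, adjusted p = 0.0674) and Aldoa (-0.99, adjusted p = 0.00863) were not called. Against the TP1 controls, tumors of vehicle-treated mice 1 day after the last dose (day 36), the median of the same 20 genes was -1.41.

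Of 13 genes of drug transport and detoxification none was higher and 2 were lower, not far from the 10.2% of all genes, namely the metallothioneins Mt2 at 20.7, 94.7 and 33.8 CPM in the TP2 controls and 15.1, 15.8, 18.5 and 19.3 CPM in the TP3 treated tumors (-1.53 ± 0.40, adjusted p = 0.00523) and Mt1 (-1.46, adjusted p = 0.0114). Without control replicate 2 they were not called (-0.67, adjusted p = 0.0989 for Mt2), and Abcb1a was higher (1.06, adjusted p = 0.00143). The paclitaxel pump genes Abcb1a (0.48, adjusted p = 0.168) and Abcb1b (0.25, adjusted p = 0.378) and the copper transporter gene Slc31a1 (-0.21, adjusted p = 0.335), which also carries platinum drugs, were not called with all tumors.

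Tissue from outside the tumor differed between libraries. The summed CPM of 11 pancreas genes ran from 73.6 to 519 in the TP3 treated tumors and from 11.5 to 1995 in the TP2 controls, control replicate 2 being the lowest, and 1 gene was lower, Reg1 (-3.37, adjusted p = 0.028). That count was 8 without control replicate 2 and 0 without control replicate 1 (Reg1 at -1.35, adjusted p = 0.356) or one of TP3 treated replicates 1, 2 and 4. Dmbt1, a mucosal gene of the gut list, was at 611, 1.75 and 105 CPM in the TP2 controls and 6.43, 2.99, 17.6 and 1.91 CPM in the TP3 treated tumors (-5.05 ± 1.17, adjusted p = 0.00212), with the same order of control tumors as the pancreas genes, and its change was -2.88, adjusted p = 0.0322 without control replicate 1. Against the TP1 controls, in which pancreas genes were lowest, Reg1 and Dmbt1 were not lower but higher by 7.91 and 3.00 on the log2 scale, the latter with adjusted p = 0.0761. Of 3 liver genes tested, Cyp2e1, at 28.1, 39.1, 35.9 and 56.7 CPM in the TP3 treated tumors and 0.21, 0 and 0.218 CPM in the TP2 controls (8.14 ± 1.54, adjusted p = 0.000452), and Serpina1a (2.74, adjusted p = 0.0449) were higher, the latter not called with any one of the 7 tumors left out, whereas Alb, the defining gene of liver, was not called (-3.43, adjusted p = 0.107). Liver genes that were not tested had fewer reads in the residual tumors, Apoa1 10 against 95 in the controls, Fgb 1 against 36, Ttr 0 against 23 and Apoa2 2 against 20, and under filterByExpr Apoa1 (-3.72, adjusted p = 0.00599) and Fgb (-5.09, adjusted p = 0.00515) were called lower. Of 5 erythroid genes Alas2 was lower (-1.82, adjusted p = 0.0483), a call lost without control replicate 2 or 3 or without TP3 treated replicate 1, 3 or 4, while 3 of the 5 were lower without control replicate 1. Of the skeletal muscle genes only Myh1 passed the filter on low counts, and it was not called (0.73, adjusted p = 0.202). TP3 treated replicate 2 held muscle RNA that the other residual tumors had little of: the reads were 0, 474, 0 and 0 for Myh4, 1, 107, 1 and 4 for Ckm and 31, 242, 17 and 17 for Acta1 in the TP3 treated tumors, against sums of 1, 0 and 12 in the controls. Under filterByExpr Acta1 (4.17, adjusted p = 0.00505) and Tnnt3 (2.30, adjusted p = 0.00763) were called higher. Cyp2e1 is expressed by fat as well as by liver. The part of such tissue in the other results was not tested.

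**Figure D3:**
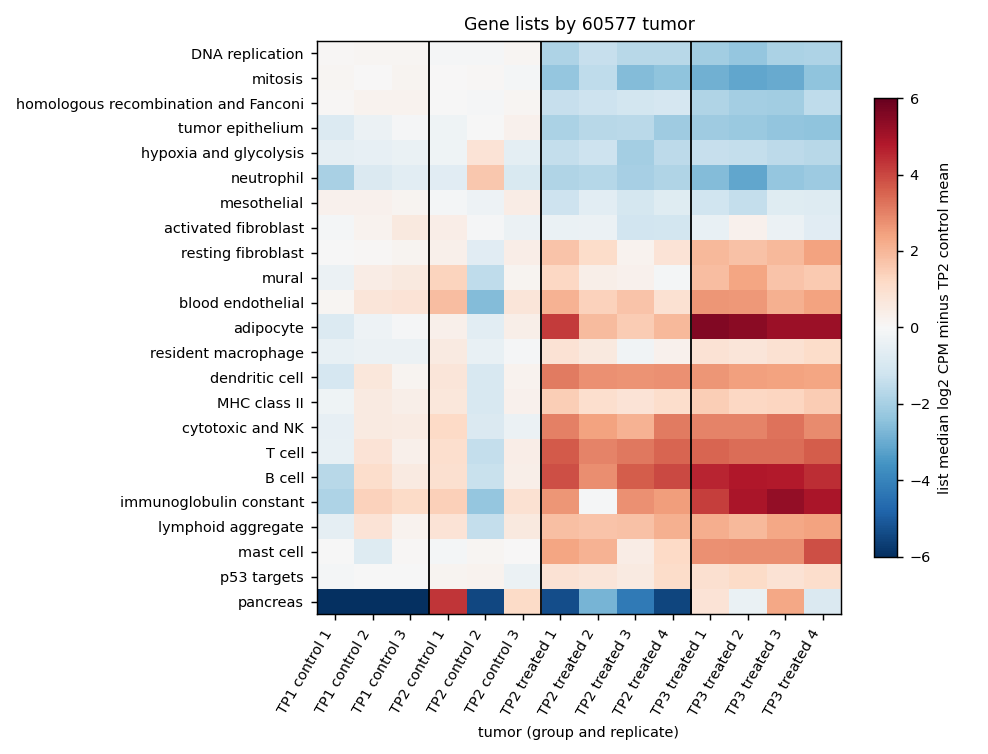
Median log2 CPM of the members of 23 lists (rows) in each of 14 tumors of the 60577 model (columns; TP1 control, TP2 control, TP2 treated, TP3 treated), less the mean of the TP2 controls, with red above and blue below that mean and the scale cut at 6 on either side. Rows look alike across the 4 TP3 treated tumors, TP2 control replicate 2 differs from its neighbors, and the pancreas row is lowest in the TP1 controls and uneven in the other groups.

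The 10 protein-coding genes with the largest rises, among those whose groups did not overlap and whose higher group averaged at least 10 CPM, were mostly those of fat. Besides Nnat, Adipoq, Lep, Cidec, Adrb3 and Cfd they were Tmem45b, Thrsp (8.96), Car3 (8.68) and Slc7a10 (8.57). Thrsp drives fat synthesis in adipocytes and liver, Car3 is an abundant carbonic anhydrase of fat and muscle, and Slc7a10 is an amino acid transporter of white adipocytes. Tmem45b, which encodes a membrane protein, was at 37.1, 36.6, 34.7 and 26.2 CPM in the TP3 treated tumors and 0, 0 and 0.0437 CPM in the TP2 controls, with 1 control read in all and a ratio of reads per library size of 2710 (exact 95% counting interval 487 to 107000). Under the same limits, with a mean of at least 10 CPM in the higher group, the 10 largest falls were Slc28a3 (-6.79), Arg1, Cxcl17 (-5.69), Padi3 (-5.67), Spp1, Cpn1 (-4.67), Plet1 (-4.63), Mmp13, Chrdl2 (-4.58) and Car9. Slc28a3, a nucleoside transporter that takes up several anticancer nucleosides, was at 17.5, 15.3 and 9.78 CPM in the TP2 controls and 0.0775, 0.216, 0.139 and 0.0646 CPM in the TP3 treated tumors (-6.79 ± 0.55, adjusted p = 2.53e-07). Padi3, a protein-arginine deiminase, was at 36.9, 34 and 19.2 CPM in the TP2 controls and 0.349, 0.685, 0.416 and 0.872 CPM in the TP3 treated tumors (-5.67 ± 0.38, adjusted p = 4.8e-08), and Cxcl17, a chemokine of mucosal epithelium, at 10.6, 16.8 and 12.6 CPM in the TP2 controls and 0.155, 0.216, 0.243 and 0.388 CPM in the TP3 treated tumors (-5.69 ± 0.48, adjusted p = 3.81e-07). Each of the 3 was close to 0 in every residual tumor. Their levels in the cultured line were 0.848 and 0.871 CPM, 25 and 19.5 CPM and 9.33 and 11.1 CPM.

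The cultured line gave a measure that the comparison had not used. At 1 CPM or more in both cultures were 31.1% of the genes called higher, 83.1% of those called lower and 82.9% of those not called, against 75.6% of all genes tested, and 18.4% of the genes called higher had no read in either culture. The cultures are 2 libraries of a separate table, so these shares describe the line in culture and not the cancer cells in the tumors. All 50 replication and mitosis genes were at 1 CPM or more.

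**Figure D4:**
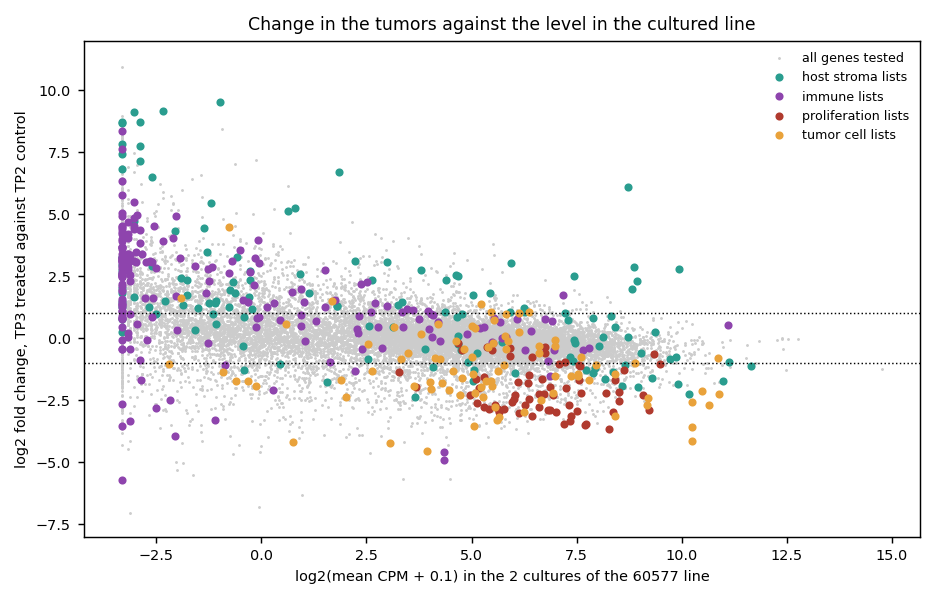
Log2 fold change of TP3 treated against TP2 control tumors (vertical axis) against log2 of the mean CPM plus 0.1 in the 2 cultures of the 60577 line (horizontal axis), for all 16241 genes (gray) and the members of the host stroma, immune, proliferation and tumor cell lists (colored), with dotted lines at a fold of 2. The largest rises sit toward the left edge, where the line has few or no reads, and most proliferation genes lie below the lower dotted line at the right.

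Time alone could be looked at in untreated tumors only from day 36 to day 42. Between the 3 TP2 controls and the 3 TP1 controls edgeR's test called 0 of 16241 genes (0%), with 1502 at an unadjusted p below 0.05, DESeq2's Wald test called 70 and limma-voom 0. Without TP2 control replicate 2 edgeR's test called 36, and without replicate 1 it called 1. The interval from day 42 to day 56 is longer and was not covered by any control. Against the TP1 controls, which the main comparison did not use, the same TP3 treated tumors had 2464 genes higher (15.2%) and 1694 lower (10.4%). Since the TP3 treated tumors are shared, the list medians are set side by side only: 5.92 against 5.23 for adipocyte genes, 4.26 against 4.35 for B cell genes, 3.03 against 3.03 for T cell genes, -1.81 against -2.17 for epithelial genes and -2.89 against -2.89 for mitosis genes. The pancreas genes went from -1.83 to 8.16.

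HGS2, the other model, grows in C57BL/6 mice and was given the same drugs on a later schedule. There the contrast of TP3 treated against TP2 control tumors had 1 gene higher and 2 lower (909 at an unadjusted p below 0.05). The difference between the models was itself tested in a joint fit of 33 tumors, and 1063 genes (6.55%) changed more upward and 955 (5.88%) more downward in 60577, together 12.4%. The upward count was 604 without 60577 TP2 control replicate 2 and 1597 without HGS2 TP3 treated replicate 2. All 24 replication and all 26 mitosis genes were among those that changed more downward, and their medians in HGS2 were -0.09 and -0.22. Of the adipocyte genes 28 of 31 differed between models (HGS2 median 0.02), of the hypoxia genes 16 of 20 (HGS2 median -0.04) and of the repair genes 11 of 15 (HGS2 median -0.01). Adipoq changed by 0.04 in HGS2, and the difference was 9.11 ± 2.31, adjusted p = 0.00847. For B cell genes 5 of 15 and for T cell genes 4 of 19 passed the test of the difference. The models also differ in strain and in days of growth, which cannot be told apart from the cells.

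**Figure D5:**
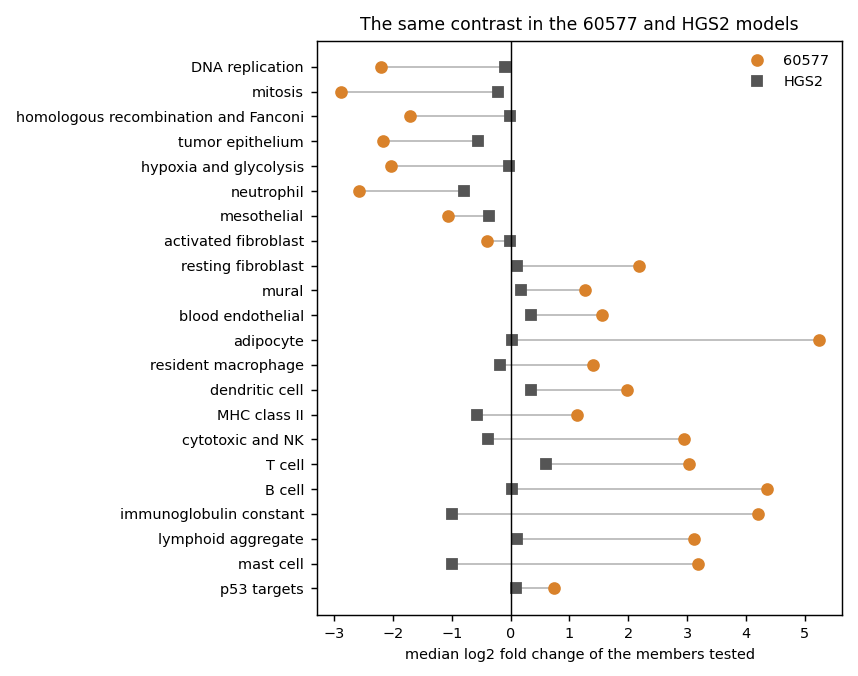
Median log2 fold change of the members of 22 lists in TP3 treated against TP2 control tumors, for 60577 (orange circles) and HGS2 (gray squares), joined by a line for each list. The HGS2 medians lie near 0 in most lists, and the lines are longest for adipocyte, immunoglobulin and B cell genes on the right and for mitosis genes on the left, where the 60577 median is -2.89 and that of HGS2 -0.22.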

How the data were processed

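RNA of frozen omental tumors was depleted of ribosomal RNA and sequenced strand-specifically in 150 bp pairs. The authors trimmed reads with Trim Galore 0.6.5, mapped them with STAR 2.7.0f to GRCm38 (mm10) and estimated reads per gene with RSEM, and the deposited values are these expected counts, without normalization. They were rounded to whole numbers here. The study's own correction for length and GC content is not in the deposited values. Symbols, coordinates and gene types were taken from GENCODE M21, in which 55227 of 55487 genes were found, and promoters from RefSeq (GRCm38.p6).

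A gene entered the tests if 25% of 33 tumors (9 libraries) reached 1 CPM, a filter that can drop genes present in the 4 TP3 treated tumors only. HGS2 TP3 treated replicate 1 was left out, since it was not in the study's sample tables used here. The 17 tumors of the 60577 model, in 5 groups, were fitted together without covariates in edgeR 4.0.16 (R 4.3.3) with TMM scaling and the quasi-likelihood test, and the standard error is the log2 fold change divided by the square root of F. The joint fit of 33 tumors tested the difference between models. Overlap between groups was judged on log2 CPM with a prior count of 2. Alternatives used DESeq2 1.42.0 and limma 3.58.1 (voom). The procedure was tested on simulated data.

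The labels gave each library its group and number. They do not tie libraries to mice, while the study speaks of replicate mice. Same-numbered TP3 treated and TP2 control tumors had correlations of deviations of 0.1, 0.061 and 0.176, against -0.141 to 0.128 for tumors of different numbers. These few values cannot decide whether the numbers mark pairs, and they were not taken as pairs. No replicate pair was a duplicate: counts differed by chi-square values per degree of freedom of at least 18.8. Intervals of read ratios cover counting error only.

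The members and the 43 gene lists were chosen with earlier results of these data known. Named were members of those lists, including the called one with the largest change in each direction, the 10 protein-coding genes with the largest rises and falls among calls whose groups did not overlap and whose higher group averaged at least 10 CPM, and the 5 list members with the largest called difference between models. A few list members are not reported here by name.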

Additional observations from a re-analysis of the deposited data

Results flagged for a closer look

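Of 190 genes named in the text, 14 had 1 TP3 treated tumor that stood apart from the other 3 by Dixon's criterion for 4 values, a criterion that chance meets in about 1 of 20 groups. In replicate 4 these were Bnip3 (71.6 CPM), Il7 (4.94 CPM), Cenpf (17.7 CPM), Mcpt4 (8.4 CPM), Mmp9 (64.1 CPM), Myh11 (154 CPM), Nnat (118 CPM) and Spp1 (6.88 CPM). Cenpf, Il7 and Mcpt4 were highest there and the other 5 lowest. In replicate 3 Ccl21a (0.381 CPM), Mrc1 (313 CPM) and Scd1 (4084 CPM) were lowest. In replicate 1 Adm (6.2 CPM) was highest and Grem1 (8.45 CPM) lowest, and in replicate 2 Acta2 (134 CPM) was highest. In Mrc1 the other 3 tumors lay between 326 and 328 CPM, so the gap was small in size.

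The change from TP2 control to TP3 treated tumors differed between the 60577 and the HGS2 model most in 5 list members, by the test of the difference in the joint fit. The difference was 9.74 ± 2.46, adjusted p = 0.00844 for Ighg3, -9.64 ± 2.05, adjusted p = 0.0028 for Mmp13, 9.14 ± 2.01, adjusted p = 0.00355 for Nnat, 9.11 ± 2.31, adjusted p = 0.00847 for Adipoq and 8.91 ± 2.29, adjusted p = 0.00921 for Lep, each on the log2 scale. In HGS2 alone these genes changed by -1.38, 5.06, 0.36, 0.04 and 0.15, and none of these changes was called (5.06 ± 1.42, adjusted p = 0.318 for Mmp13).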

How the results depend on the processing

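The counts of 2307 genes higher and 1659 lower stayed within 1.5 times under each alternative that was run. The filters tested other numbers of genes: 3122 and 2249 without a filter on low counts, 2998 and 2031 with filterByExpr. With a replicate block (the replicate number as a term) 2249 were higher and 1609 lower, of which 2187 and 1548 were called in the fit without it. Leaving out 1 tumor at a time gave 2061 to 2481 higher and 1549 to 1731 lower. The medians over all genes moved by at most 0.03. For TP2 against TP1 controls, 0 genes became 70 with DESeq2's Wald test, and 0 to 36 with 1 tumor left out. For the difference between models, 1063 genes higher became 656 with HGS2 TP3 treated replicate 1 included, and leaving out 1 tumor gave 604 to 1597 higher and 686 to 1146 lower. With 5 CPM in place of 1 CPM as the threshold for the cultured line, the shares were 15.6% of the genes called higher and 69.1% of those called lower. Of named genes called under either setting, 4 values changed sign: Inhba, which ranged from -2.89 to 0.14 with 1 tumor left out and was highest without control replicate 2, Dmbt1 (3.00) and Reg1 (7.91) against the TP1 controls, and Reg1 against all 6 controls (2.27). In genes called under neither setting, 24 more values changed sign. The other values of named genes kept their side of the threshold in 3573 cases, lost the call in 144 and gained it in 50. The cause was not tested. A total of 2838 genes left untested by the filter used here were tested under filterByExpr, 663 of them higher and 407 lower.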

Other observations

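Gene families were counted by symbol, chosen after their values were seen. All 8 Gimap genes tested, GTPases of lymphocytes, were higher, with a median log2 fold change of 3.34 and a range of 1.91 to 4. Of 64 genes of the replication-dependent histone clusters 49 were lower (median -1.93) and none higher, and 49 of the 64 differed between the models. Of 43 variable genes of the kappa light chain 35 were higher (median 4.26), and of 23 of the heavy chain 11 were (median 2.84). Such variable genes are near-copies of each other, so reads can be shared between them. Of 12 keratin genes, 4 of them also in the epithelial list, 8 were lower and 1 higher. Of 75 ribosomal protein genes 1 was called, against 24.4% of all genes. Of 39 genes with the symbols Ndufa, Ndufb, Ndufc, Ndufs or Ndufv and a number, most of them for subunits of respiratory complex I, 1 was called.

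Some genes that the filter on low counts left out, also named after their values were seen, had reads almost only in the residual tumors. Adig, an adipogenin gene of fat, had 336, 460, 345 and 370 reads in the TP3 treated tumors and 1, 1 and 1 in the controls. Mc2r, the receptor of the pituitary hormone ACTH, which mouse fat expresses, had 154, 155, 118 and 103 reads against 0, 0 and 1. Orm1, an acute phase gene of liver and fat, had 503, 760, 453 and 655 reads against 9, 4 and 2. The steroid synthesis genes Cyp11a1 and Hsd3b1 were uneven among the residual tumors: Cyp11a1 had 267, 10, 377 and 14 reads against 7, 6 and 7 in the controls, and Hsd3b1 had 299, 24, 306 and 17 against 0, 0 and 0. In both, replicates 1 and 3 were far above replicates 2 and 4.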
